A study of Mus musculus with 12 samples.

Results

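The eukaryotic translation initiation factors (eIFs) were examined in mouse muscle satellite cells through every probe set, the unit of an Affymetrix array that reports 1 transcript region, that the platform annotation assigns to exactly 1 gene with a symbol from Eif1 to Eif6. The rule used names only and no measured value. It found 103 of the 20380 single-gene probe sets, which belong to 42 of 12393 genes. Of these genes 40 passed the filter on low signal and were tested among 7960 genes, and 2, Eif2s3y and Eif2ak2, did not. Of the 103 probe sets 83 passed the filter and 20 did not, and 17 of those 20 belong to genes tested through a stronger probe set.

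Initiation brings the methionyl initiator tRNA, the small ribosomal subunit and the mRNA together. The eIF2 complex carries the tRNA as a GTP-bound ternary complex, eIF2B recharges eIF2 with GTP, and eIF2 kinases block that step by phosphorylating eIF2. The eIF4 factors bind the mRNA cap and unwind the leader, the large eIF3 complex joins mRNA and ribosome, and the 4E-BP proteins hold the cap-binding protein eIF4E inactive until mTORC1 phosphorylates them. Quiescent satellite cells are known for low protein synthesis and for eIF2 phosphorylation by the kinase PERK. The arrays measured transcripts and no phosphorylation.

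All cells were sorted from hind limb muscle of C57BL/6J mice aged 8 to 12 weeks, and 4 arrays were made of each group. Quiescent satellite cells (QSC) bound the antibody SM/C-2.6 and were taken right after the sort, and the labels give over 97% of them as Pax7-positive. Activated satellite cells (ASC) bound the same antibody and were then grown for 4 days in DMEM with 20% FCS and 2.5 ng/ml bFGF, after which over 99% were MyoD-positive. Non-myogenic cells (NMC) were negative for SM/C-2.6 and for the leukocyte antigen CD45, were taken right after the sort, and held under 1% myogenic cells. No group was cultured besides ASC, so activation, culture and time since the sort cannot be told apart. The labels do not tie the 4 arrays of a group to separate animals or cultures, so the p-values rest on the spread among these arrays, which could be technical.

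Within each group some arrays were labelled with a small-sample kit (QSC 1 and 2, ASC 1 and 2, NMC 1) and the others with a two-cycle kit. The 2% trimmed mean signal ran from 323 to 502 on the small-sample arrays and from 160 to 236 on the two-cycle arrays, so every array was scaled to 235 before comparison. All signals given here are scaled signals, listed for arrays 1 to 4 of a group in that order, and signals of different genes are not compared. For the Gapdh control probes the ratio of 3' to 5' signal was 4.02 ± 0.969 (SD, n = 4) in QSC, 1.75 ± 0.411 in ASC and 3.87 ± 0.916 in NMC. Summed signals of 7 satellite cell and myoblast marker genes were 7312 to 9639 in QSC, 7917 to 11232 in ASC and 255 to 491 in NMC. The 8 endothelial marker genes summed to 2745 to 5005 in QSC, 62.2 to 127 in ASC and 12520.1 to 14978 in NMC, and the 6 fibroblast marker genes measured summed to 7951 to 17529, 1342 to 1785 and 30755 to 60385. The 3 cycling markers measured summed to 424 to 854 in QSC, 4340.3 to 6455 in ASC and 204 to 383 in NMC. In ASC 7 of the 8 endothelial and 4 of the 6 fibroblast genes stayed below 47.03, the level of the low-signal filter, on every array, while Kdr reached 53.5, Col1a2 567 and Col3a1 1287. The 5 pericyte and smooth muscle genes summed to 4173 to 7247 in QSC, 2129 to 4734 in ASC and 9157 to 16368 in NMC, and 6 leukocyte genes to 152 to 499, 86.6 to 91.9 and 217 to 432. The 6 genes of the mature myofibre summed to 1873 to 6535 in QSC and 6938 to 22735 in NMC, and in ASC to 7080.2 and 6787 on the small-sample arrays but 648 and 713 on the two-cycle arrays. Their change from QSC to ASC differed between the kits for 5 of the 6 (interaction, adjusted p under 0.05), where 4.15% of all genes did. Within ASC, kit and myofibre marker level cannot be told apart, and each value among small-sample or two-cycle arrays below carries both. The part of these other cell types, of cycling cells and of the Gapdh ratio in the results below was not tested.

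Activated satellite cells carried more transcript of many initiation factors than quiescent ones, with the repressor gene Eif4ebp1 the most increased of them and the helicase gene Eif4a2 the most decreased. All 4 measured genes of the eIF2B exchange factor and the 2 measured subunit genes of eIF2 rose. Each of eIF3 and eIF4 held 4 genes that rose and 3 that fell, of 11 and 10 tested, near the shares of all genes given next. Of the 40 genes 19 rose, 8 fell and 13 were not called (limma with Benjamini-Hochberg adjustment, adjusted p under 0.05), where 31.8% of all tested genes rose and 38.2% fell, 70.0% in all. With a change of at least 2-fold, 7 rose and 2 fell, against 15.9% and 21.6% of all genes. The median log2 change was 0.30 over the 40 genes and -0.11 over all genes tested. The arrays of both groups did not overlap for 24 of the 40, where 53.4% of all genes did not. In bulk RNA of this kind, fewer cells of a type and less RNA per cell cannot be told apart.

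**Figure D1:**
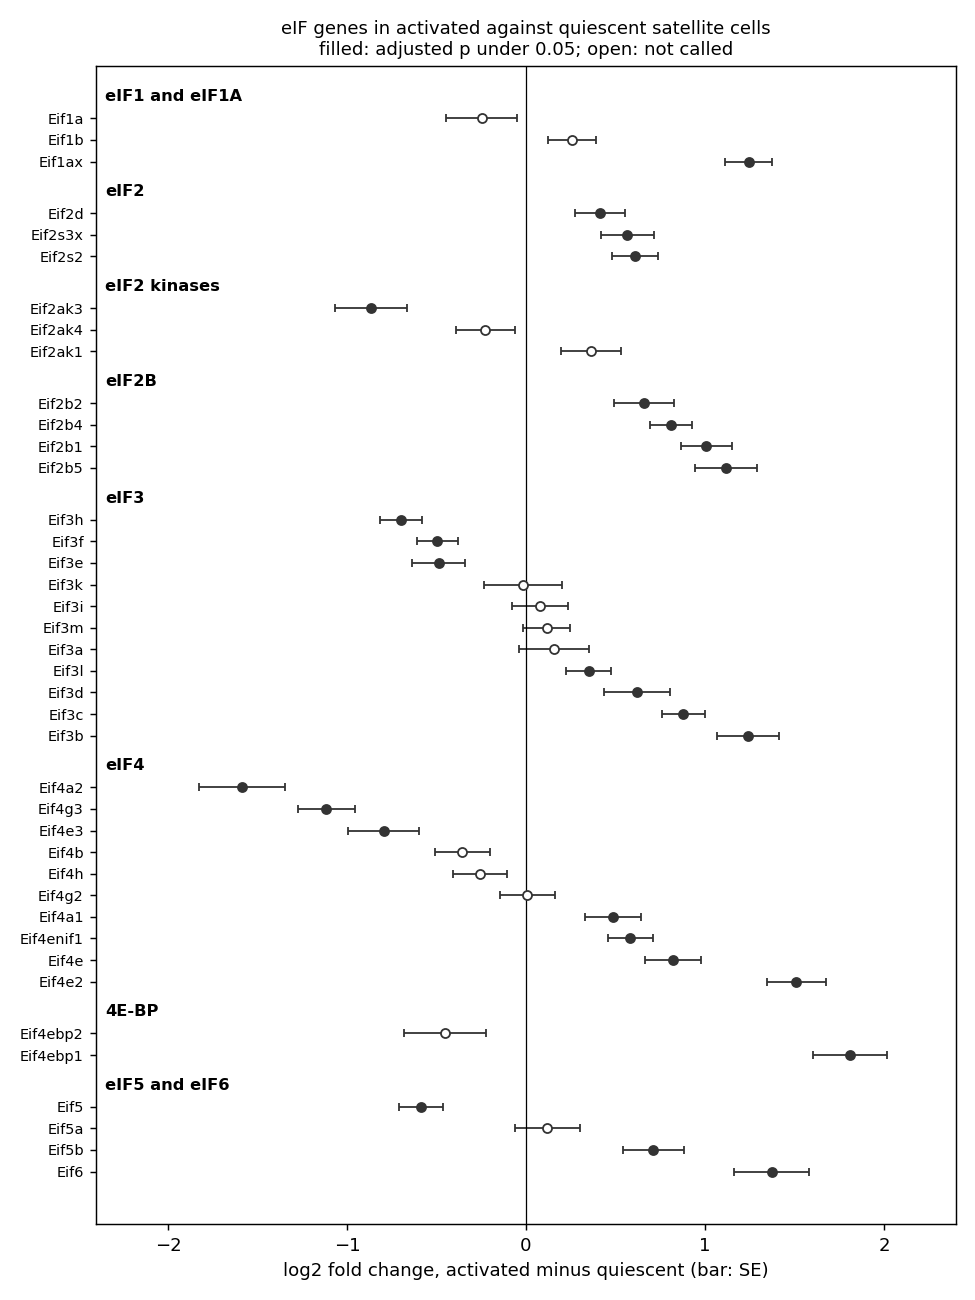
Log2 fold change of the 40 tested eIF genes, activated minus quiescent satellite cells, by functional group, where points are limma estimates from 4 against 4 arrays and bars their SE. Filled points were called at an adjusted p under 0.05 and open points were not, and Eif4ebp1 at 1.81 and Eif4a2 at -1.59 lie at the ends.

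The level at which arrays are set equal bears on the falling genes. Leaving the deposited signals unscaled moved the median change of all genes by 0.29, median centring moved it by 0.48 and quantile normalization by 0.13. Of the 8 genes that fell, 2 stayed called as lower without scaling and 2 under median centring, and Eif4a2 and Eif4g3 stayed called under all 28 alternatives. The 19 that rose became 21 without scaling, 26 with median centring and 20 with quantile normalization. Relative to the median of all genes, 27 of the 40 eIF genes lay above it under each of the 4 scalings. Among all genes the shares called higher and lower were 38.8% and 26.7% unscaled, 47.6% and 23.6% with median centring and 34.5% and 33.2% with quantile normalization. Within the small-sample kit 11 eIF genes were called higher and 4 lower, and within the two-cycle kit 18 and 9. Without both small-sample activated arrays the counts were 15 and 7. The shares of all genes called in these smaller fits were not counted, so these counts cannot be set against those of the main fit. With each of the 83 passing probe sets tested by itself, 37 were higher and 13 lower, against 30.7% and 37.6% of 12072 probe sets.

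The cap-binding step showed the widest range of changes. Eif4ebp1 (probe set 1417562_at), which encodes the repressor 4E-BP1, had signals of 788, 614, 347 and 572 in the quiescent arrays, 2045, 1629, 2100.4 and 2255 in the activated arrays and 456, 441, 510.4 and 537 in the non-myogenic arrays. Every activated array lay above every other array, while the quiescent and non-myogenic arrays overlapped. From QSC to ASC the gene rose by 1.81 ± 0.21 on the log2 scale (SE), 3.51-fold, with an adjusted p of 4.13e-06, and by 1.37 between small-sample arrays and 2.25 between two-cycle arrays. A second probe set of the gene, 1434976_x_at, rose by 1.11. Its paralogue Eif4ebp2 (1417084_at) had signals of 298, 265, 159 and 123 in the quiescent arrays, 188, 191, 113 and 97.2 in the activated arrays and 308, 129.5, 96.5 and 51.9 in the non-myogenic arrays. All 3 groups overlapped, the small-sample arrays were the high ones in each group, and the change from QSC to ASC was -0.45 ± 0.23 (adjusted p 0.09399). Its probe sets differ: 1436158_at rose by 0.48, and 1437733_at changed by -0.42 with an adjusted p of 0.0599. The change of Eif4ebp1 exceeded that of Eif4ebp2 by 2.26 (exact two-sided permutation test, 4 against 4 arrays, p = 0.0286, the smallest this design allows; adjusted p 0.0429 over 24 tests).

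**Figure D2:**
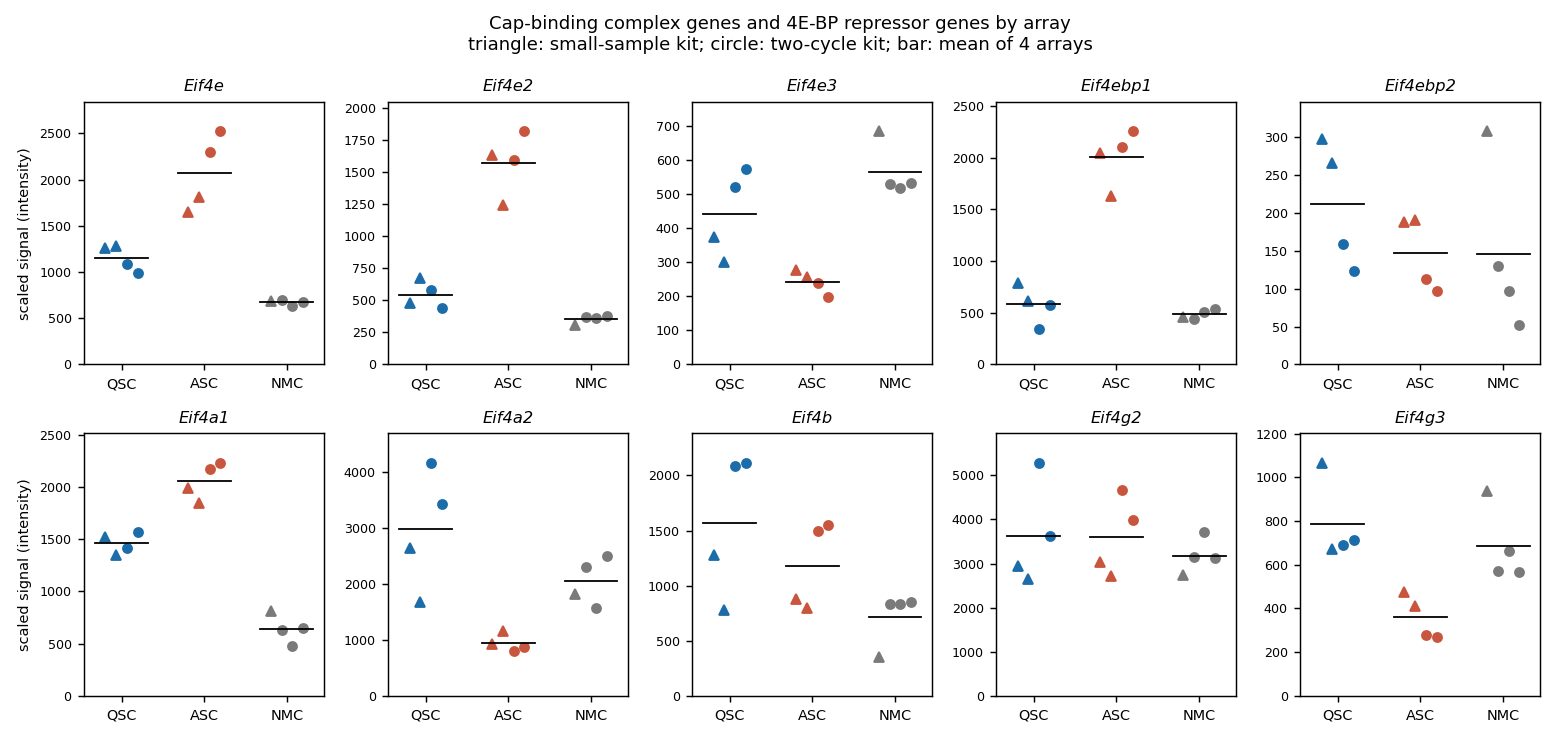
Scaled signal of 8 eIF4 genes and both measured 4E-BP genes on each of the 12 arrays, each gene on its own linear axis from 0. Triangles are small-sample and circles two-cycle arrays, and bars are means of 4: Eif4ebp1, Eif4e and Eif4e2 stand highest in ASC, and Eif4a2 and Eif4g3 lowest.

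Both cap-binding genes with the clearest rise lay above all other arrays in ASC. Eif4e (1450908_at), the cap-binding subunit itself, had signals of 1260.0, 1277, 1092 and 989 in the quiescent arrays, 1651, 1809, 2295 and 2522 in the activated arrays and 687, 693, 636 and 674 in the non-myogenic arrays. The groups did not overlap, and the order was ASC, QSC, NMC. From QSC to ASC it rose by 0.82 ± 0.16 (1.77-fold, adjusted p 0.000362), 0.44 between small-sample arrays and 1.20 between two-cycle arrays, and all 3 of its probe sets rose. Eif4e2 (1435803_a_at), which encodes the cap-binding homologue 4EHP known from repressor complexes, had signals of 484, 677, 583 and 438 in the quiescent arrays, 1634, 1246, 1599 and 1822 in the activated arrays and 307, 371, 365 and 377 in the non-myogenic arrays. Again no groups overlapped, and the gene rose by 1.51 ± 0.16 (2.85-fold, adjusted p 2.47e-06), 1.30 between small-sample arrays and 1.73 between two-cycle arrays. Its probe set 1421985_a_at rose by 1.57 but 1435804_at fell by 1.04, so the direction for this gene depends on the probe set. Eif4e3 (1417977_at), the third member of the family, had signals of 375, 299.8, 519.5 and 574 in the quiescent arrays, 276, 256, 240.2 and 198 in the activated arrays and 684, 529, 516 and 534 in the non-myogenic arrays. All activated arrays lay below all others, and the gene fell by 0.79 (SE 0.20, adjusted p 0.00275), with -0.32 between small-sample arrays and -1.27 between two-cycle arrays. This call was lost without scaling and with median centring. A second probe set of Eif4e3, 1417978_at, changed by -1.35 from QSC to ASC, but its activated and non-myogenic arrays overlapped. Between QSC and NMC it differed by 0.79 (limma with each probe set tested by itself, adjusted p 0.0247). The probe set used gave -0.37 there and was not called. The change of Eif4e minus that of Eif4e3 was 1.61, and minus that of Eif4e2 it was -0.69 (exact permutation tests as above, adjusted p 0.0429 for each), the second difference turning to 0.44 when all probe sets of a gene were averaged.

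The helicase paralogues moved apart. Eif4a1 (1434985_a_at), the abundant form of the RNA helicase eIF4A, had signals of 1523, 1348, 1419 and 1569.6 in the quiescent arrays, 1986, 1847, 2175 and 2233 in the activated arrays and 809, 626, 479 and 647 in the non-myogenic arrays. The groups did not overlap, and from QSC to ASC the gene rose by 0.49 ± 0.16 (adjusted p 0.0138), as did all 3 of its probe sets. Eif4a2 (1450934_at), the second form, had signals of 2641, 1674, 4165 and 3434 in the quiescent arrays, 919, 1165, 797 and 875 in the activated arrays and 1827, 2303, 1564 and 2492 in the non-myogenic arrays. Every activated array lay below every other array, while QSC and NMC overlapped. It fell by 1.59 (SE 0.24, 3.003-fold, adjusted p 5.40e-05), -1.01 between small-sample arrays and -2.16 between two-cycle arrays. The change of Eif4a1 exceeded that of Eif4a2 by 2.07 from QSC to ASC (exact permutation test, adjusted p 0.0429), 4.21-fold, and by 2.79 between NMC and ASC (adjusted p 0.0429).

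Sequence upstream of these opposed helicase genes, and of Eif4e and Eif3c as members that rose, is shown to set their promoters side by side. RefSeq entries on the mouse build GRCm38.p6 matched 32 of the 40 tested genes. Each line gives 250 bases before a RefSeq start site, on the strand of the gene, with capitals marking CACGTG, the E-box bound by Myc and related factors, or CCGGAAG, a core bound by Ets-family factors, on either strand.
Eif4a1, chr11:69672424-69672673, minus strand: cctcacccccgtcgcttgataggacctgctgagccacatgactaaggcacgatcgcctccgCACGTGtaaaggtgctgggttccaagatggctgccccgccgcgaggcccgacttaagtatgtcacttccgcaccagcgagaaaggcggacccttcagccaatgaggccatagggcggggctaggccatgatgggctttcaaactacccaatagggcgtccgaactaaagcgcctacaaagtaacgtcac
Eif4a2, chr16:23107218-23107467, plus strand: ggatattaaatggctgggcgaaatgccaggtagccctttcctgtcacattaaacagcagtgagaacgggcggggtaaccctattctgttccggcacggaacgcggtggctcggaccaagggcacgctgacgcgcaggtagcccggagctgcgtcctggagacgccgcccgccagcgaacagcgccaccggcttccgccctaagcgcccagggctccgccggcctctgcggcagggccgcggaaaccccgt
Eif4e, chr3:138527018-138527267, plus strand: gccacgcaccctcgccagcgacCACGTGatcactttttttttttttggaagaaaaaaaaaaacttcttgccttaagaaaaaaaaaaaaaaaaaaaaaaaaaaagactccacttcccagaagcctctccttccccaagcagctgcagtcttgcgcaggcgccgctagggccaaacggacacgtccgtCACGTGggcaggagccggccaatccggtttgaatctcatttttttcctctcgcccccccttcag
Eif3c, chr7:126566367-126566616, minus strand: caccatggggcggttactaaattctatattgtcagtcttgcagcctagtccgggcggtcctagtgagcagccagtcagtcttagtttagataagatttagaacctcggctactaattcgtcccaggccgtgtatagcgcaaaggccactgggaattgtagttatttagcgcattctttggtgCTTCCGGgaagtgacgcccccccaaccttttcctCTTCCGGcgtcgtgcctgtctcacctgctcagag

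Eif4a1 held 1 CACGTG in this stretch, 189 bases before the start, and the stretch printed for Eif4e held 2, at 228 and 64 bases before it. RefSeq lists 2 start sites for Eif4e, and the stretch before the other one, chr3:138525941-138526190, held neither string. Eif3c held 2 copies of CCGGAAG, 68 and 34 bases before the start, and Eif4a2 held neither string. Both strings were chosen after sequences and results had been seen. Of the genes that rose and have an entry, Eif4a1 and Eif4e are the only ones with CACGTG. The printed stretches therefore do not stand for the genes that rose or fell, which are counted below. A gene was counted if the window of any of its listed start sites held the string, and 6 of the 32 genes have several. Over the 300 bases from 250 before to 50 after the start, CACGTG occurred in 8 of the 32 eIF genes (25.0%) and in 12.3% of the 6491 tested genes with an entry. CCGGAAG occurred in 13 of 32 (40.6%) and in 21.4%. Of the eIF genes that rose from QSC to ASC, 8 of 17 held CCGGAAG and 2 of 17 CACGTG, and of those that fell 0 of 5 and 1 of 5 did. These are letter matches, no test was made of them, and no binding was measured.

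Other eIF4 genes are scaffold, cofactor and partner genes. Eif4g3 (1426833_at), a scaffold that links cap-binding protein, helicase and eIF3, had signals of 1068, 673, 691 and 714 in the quiescent arrays, 477, 411, 279 and 268 in the activated arrays and 939, 574, 661 and 566 in the non-myogenic arrays. All activated arrays lay below all others, and the gene fell by 1.11 (SE 0.16, 2.17-fold, adjusted p 3.13e-05), -0.92 between small-sample arrays and -1.31 between two-cycle arrays. Eif4g2 (1452758_s_at), a scaffold homologue that does not bind eIF4E, had group means of 3625 ± 1181 in QSC, 3598 ± 899 in ASC and 3181 ± 402 in NMC (SD, n = 4). Its change of 0.01 ± 0.15 was not called. Tested by itself in limma, its probe set 1415863_at rose by 0.46 (adjusted p 0.011), and 1428362_at changed by -0.16 (adjusted p 0.224). Eif4enif1, which encodes the eIF4E-binding shuttling protein 4E-T, rose by 0.58 ± 0.13, from 296 ± 28.3 to 450.3 ± 41.1, with no overlap of the arrays. The helicase cofactor genes Eif4b and Eif4h changed by -0.36 ± 0.15 (adjusted p 0.0546) and -0.26 ± 0.15 (adjusted p 0.142), and neither was called, though Eif4b was called as lower under 7 of the 28 alternatives. Eif4b (1426380_at) had signals of 1280.5, 777, 2083 and 2116 in the quiescent arrays, 880.1, 797, 1492 and 1548 in the activated arrays and 354, 830.0, 833 and 852 in the non-myogenic arrays. Its small-sample arrays were the lower ones in each group. Of the 10 eIF4 genes 4 rose and 3 fell, with a median change of -0.12. Of all tested genes 31.8% rose and 38.2% fell, with a median of -0.11. Within the small-sample kit alone the calls of Eif4e, Eif4e3, Eif4a1 and Eif4enif1 were lost, with adjusted p from 0.0586 for Eif4enif1 to 0.256 for Eif4e3.

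The genes of eIF2B rose as a group from QSC to ASC, 4 of 4, where 31.8% of all genes rose. Their median change was 0.91, beside -0.11 for all genes. The arrays overlapped for none of them, and 53.4% of all genes had no overlap either. Eif2b1 (1460730_at), the alpha subunit, had signals of 198, 254, 381 and 352 in the quiescent arrays, 568, 443, 759.6 and 641 in the activated arrays and 236, 317, 276 and 334 in the non-myogenic arrays. It rose by 1.01 ± 0.14 (adjusted p 3.00e-05), 1.11 between small-sample arrays and 0.90 between two-cycle arrays. Eif2b2 (1434538_x_at), the beta subunit, had signals of 676, 725, 552 and 533 in the quiescent arrays, 810.3, 835, 1132 and 1216 in the activated arrays and 316, 422, 419 and 416 in the non-myogenic arrays. Its activated arrays were the highest, its non-myogenic arrays the lowest, and the rise was 0.66 ± 0.17 (adjusted p 0.00323), with 0.23 between small-sample arrays and 1.09 between two-cycle arrays. The call of Eif2b2 was lost among small-sample arrays (adjusted p 0.378) and with the mean of its probe sets (0.37). Eif2b4 (1449940_a_at), the delta subunit, had signals of 418, 402, 513 and 544 in the quiescent arrays, 666, 688, 974 and 1049 in the activated arrays and 434, 578, 584 and 561 in the non-myogenic arrays. It rose by 0.81 ± 0.12 (adjusted p 2.95e-05), 0.70 between small-sample arrays and 0.92 between two-cycle arrays. Eif2b5 (1433886_at), the catalytic epsilon subunit, had signals of 249, 309, 199.6 and 301 in the quiescent arrays, 537, 496, 628 and 695 in the activated arrays and 179, 271, 289 and 248 in the non-myogenic arrays. The activated arrays lay above the other 8, and the rise was 1.12 ± 0.17 (2.17-fold, adjusted p 6.45e-05), 0.86 between small-sample arrays and 1.38 between two-cycle arrays. The quiescent and non-myogenic arrays overlapped for Eif2b1, Eif2b4 and Eif2b5, none of which differed between those groups beyond the threshold.

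**Figure D3:**
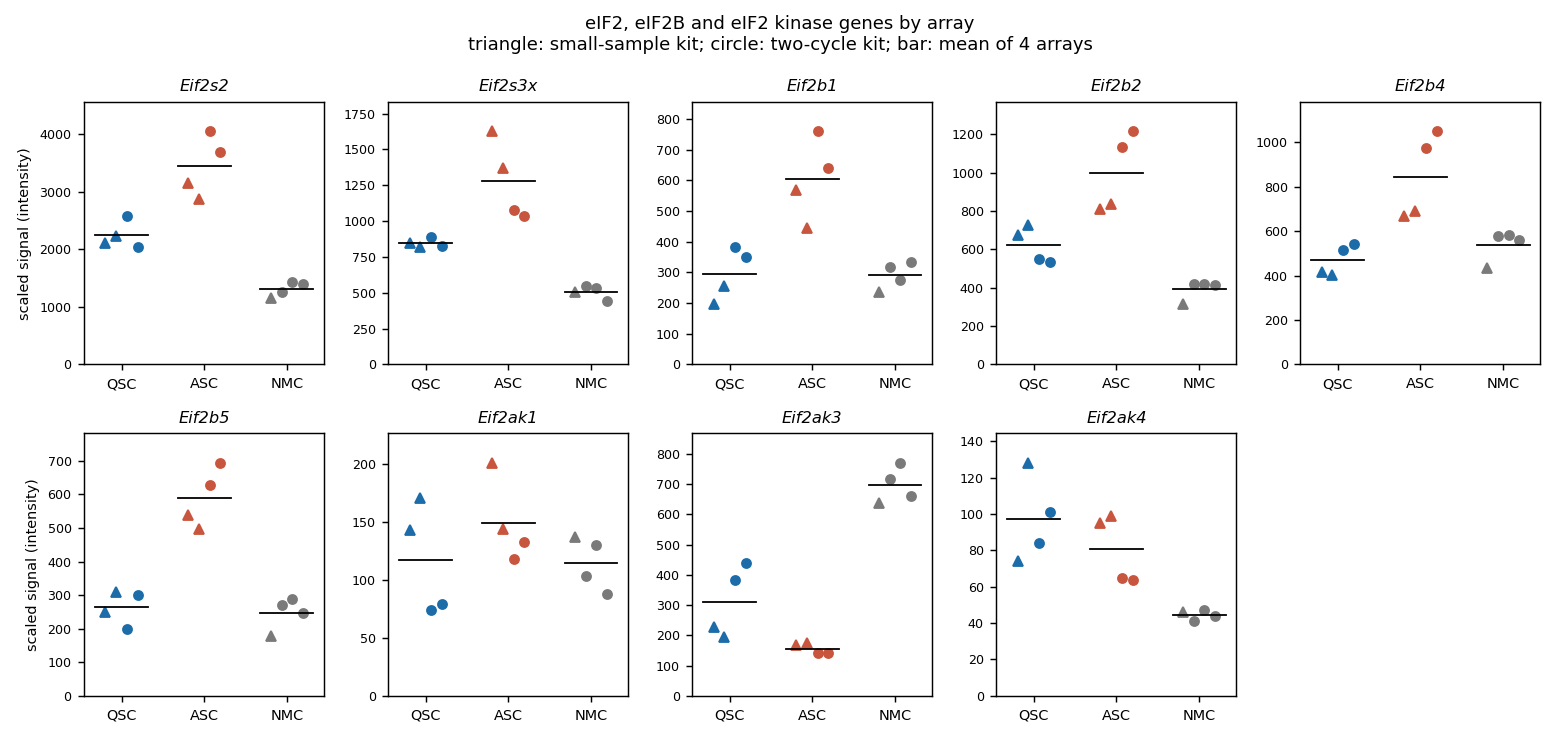
Scaled signal of eIF2, eIF2B and tested eIF2 kinase genes on each of the 12 arrays, each gene on its own linear axis from 0, with triangles for small-sample arrays, circles for two-cycle arrays and bars for means of 4. The 4 Eif2b genes stand highest in ASC, and Eif2ak3 has its 4 highest arrays in NMC (638 to 771) and its 4 lowest in ASC (140.2 to 173).

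The measured eIF2 subunit genes rose as well, by less. Eif2s2 (1417712_at), the beta subunit, had signals of 2103, 2236, 2582 and 2038 in the quiescent arrays, 3155, 2874, 4045 and 3686 in the activated arrays and 1158, 1254, 1439 and 1388 in the non-myogenic arrays. The groups did not overlap, and the rise from QSC to ASC was 0.61 ± 0.13 (adjusted p 0.000935), 0.47 between small-sample arrays and 0.75 between two-cycle arrays. Of its 6 probe sets 3 rose and 1, 1441023_at, fell by 2.34, and the call was lost with the mean of the probe sets (0.13) and within the small-sample kit. Eif2s3x (1423744_x_at), the gamma subunit encoded on the X chromosome, had signals of 847, 816, 891 and 826 in the quiescent arrays, 1627, 1369.5, 1078 and 1037 in the activated arrays and 506, 545, 533 and 439.9 in the non-myogenic arrays. It rose by 0.57 ± 0.15 (adjusted p 0.00373), 0.83 between small-sample arrays and 0.30 between two-cycle arrays, and the call was lost within the two-cycle kit and without both small-sample activated arrays. Eif2d (1436724_a_at), a separate factor that delivers tRNA to the ribosome without being a subunit of eIF2, had signals of 234, 311, 339 and 319.9 in the quiescent arrays, 351, 380.4, 474 and 411 in the activated arrays and 187, 272, 310.1 and 298 in the non-myogenic arrays. It rose by 0.41 ± 0.14 (adjusted p 0.0155), the smallest change among these 3 genes, and that call was lost with no term for the kit, within the small-sample kit, with the mean of its probe sets (0.21) and without both small-sample activated arrays. Of these 3 genes 1 was called within the small-sample kit and 1 with the mean of probe sets.

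Eif2s3y, the Y-linked gamma subunit gene, did not exceed a signal of 7.11 on any of the 12 arrays and was not tested. Of 10 sex-linked genes listed, the other Y-linked genes with a probe set, Kdm5d, Uty and Usp9y, stayed at or below 27.3, and Kdm5c at or below 68.8, also under the filter. From QSC to ASC the X-linked genes Kdm6a and Ddx3x and the noncoding RNA Xist fell, with log2 changes of -1.75, -0.75 and -1.32, while Eif2s3x rose. The fall of Ddx3x was not called without scaling or with median centring.

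Transcripts of the eIF2 kinases did not share a direction. Eif2ak3 (1449278_at), which encodes PERK, the kinase of the endoplasmic reticulum, had signals of 227, 196, 384 and 439.6 in the quiescent arrays, 168, 173, 140.2 and 141 in the activated arrays and 638, 715, 771 and 662 in the non-myogenic arrays. No groups overlapped, with the non-myogenic arrays highest and the activated arrays lowest. From QSC to ASC it fell by 0.87 (SE 0.20, adjusted p 0.00166), -0.28 between small-sample arrays and -1.45 between two-cycle arrays. The difference between the arrays of both kits was itself called (interaction -1.17, adjusted p 0.0366), the only one among the 40 eIF genes. The fall was not called within the small-sample kit, without scaling, with median centring or with the mean of its probe sets. That mean took in 1430371_x_at and 1453505_a_at, both below the low-signal filter. Eif2ak4 (1421389_a_at), which encodes GCN2, the sensor of uncharged tRNA, had signals of 74.4, 128, 84.1 and 101 in the quiescent arrays, 94.9, 98.9, 64.6 and 63.96 in the activated arrays and 46.3, 40.98, 47.2 and 44.1 in the non-myogenic arrays. All non-myogenic arrays lay below the others, QSC and ASC overlapped, and their difference was -0.23 ± 0.16 (adjusted p 0.226). The mean of Eif2ak4 in NMC, 44.6, lay below the filter level of 47.03. The gene passed through QSC and ASC, so its comparisons with NMC rest on a group at the low-signal level. Eif2ak1 (1421901_at), the heme-regulated kinase HRI, had signals of 143, 171, 74.3 and 79.3 in the quiescent arrays, 201, 144, 118 and 133 in the activated arrays and 137, 103, 130.1 and 87.6 in the non-myogenic arrays. The 3 groups overlapped, and no comparison was called (ASC minus QSC 0.36 ± 0.17, adjusted p 0.0698, called as higher under 7 of the 28 alternatives). Between QSC and NMC, the change of Eif2ak3 minus that of Eif2ak4 was -2.09 (exact permutation test, adjusted p 0.0429), with the same limit for Eif2ak4 in NMC. Between ASC and QSC it was -0.64 (exact permutation test, adjusted p 0.163). Eif2ak2, which encodes PKR, the kinase that senses double-stranded RNA, had mean signals of 42.6 ± 9.42 in QSC, 19.3 ± 12.7 in ASC and 34.1 ± 13.8 in NMC and was not tested.

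Between QSC and ASC 4 of 11 eIF3 subunit genes rose, 3 fell and 4 were not called, with a median change of 0.12. Of all tested genes 31.8% rose and 38.2% fell, with a median of -0.11, so the presence of both directions is not particular to eIF3. With median centring 7 eIF3 genes rose and 0 fell (all genes 47.6% and 23.6%), and without scaling 4 and 0 (all genes 38.8% and 26.7%). Eif3b (1426674_at), a scaffold of the module that carries eIF3i, had signals of 1023, 1102, 587 and 699.8 in the quiescent arrays, 2144, 1765, 2107 and 1889 in the activated arrays and 597, 626, 619 and 668 in the non-myogenic arrays. The activated arrays lay above the other 8, and the gene rose by 1.24 ± 0.17 (2.36-fold, adjusted p 2.41e-05), 0.86 between small-sample arrays and 1.62 between two-cycle arrays. Eif3c (1456374_x_at), a core subunit, had signals of 1832, 2030.2, 3341 and 3252 in the quiescent arrays, 3490.4, 3152, 6584 and 6448 in the activated arrays and 1423, 2287, 2483 and 2519.8 in the non-myogenic arrays. Across all arrays ASC and QSC overlapped, but within each kit the activated arrays were the higher ones, and the rise was 0.88 ± 0.12 (adjusted p 1.90e-05). All 3 other probe sets of Eif3c had positive changes, of 1.70, 0.80 and 0.84, the last with an adjusted p of 0.072. Eif3d, the subunit that can contact the cap of certain mRNAs, rose by 0.62 ± 0.19, from 1694 ± 393 to 2573 ± 348. Eif3l rose by 0.35 ± 0.13 (adjusted p 0.0237), a call lost under 10 of the 28 alternatives and turned to -0.18 with the mean of its probe sets. That mean took in 1437948_x_at and 1455811_at, which stayed below the low-signal filter. Within the small-sample kit alone Eif3d, Eif3e, Eif3f and Eif3l were not called.

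**Figure D4:**
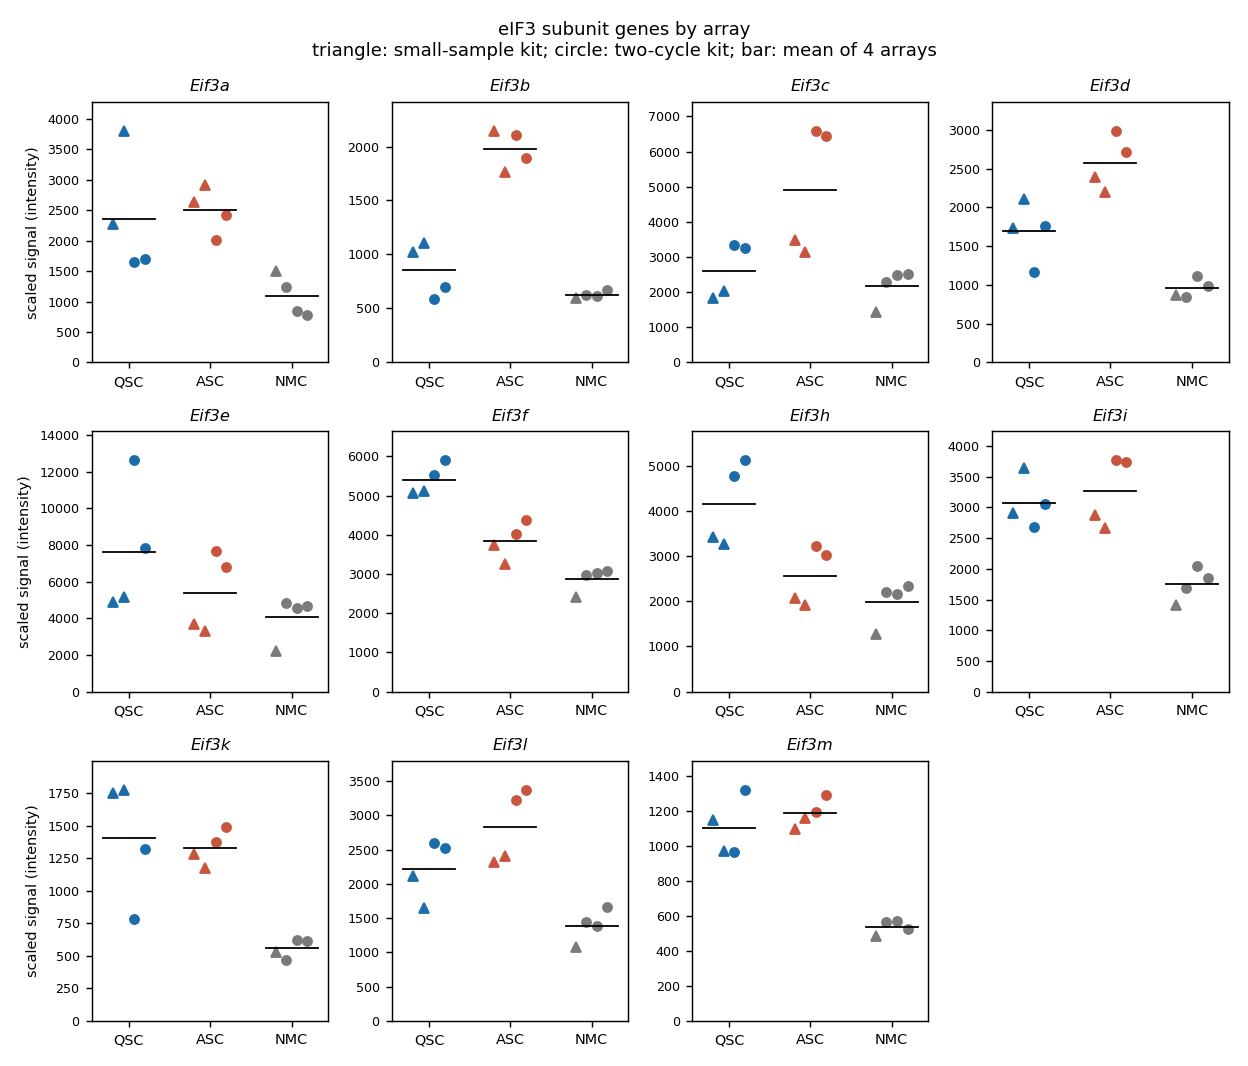
Scaled signal of the 11 measured eIF3 subunit genes on each of the 12 arrays, each gene on its own linear axis from 0, with triangles for small-sample arrays, circles for two-cycle arrays and bars for means of 4. Eif3b and Eif3d are highest in ASC, Eif3f and Eif3h are highest in QSC, and the NMC mean is the lowest in every panel.

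The 3 eIF3 genes that fell were Eif3h, Eif3f and Eif3e. Eif3h (1415962_at) and Eif3f encode the paired MPN-domain subunits of the complex, and Eif3h had signals of 3430.4, 3272, 4768 and 5120.4 in the quiescent arrays, 2078, 1928, 3227 and 3019.7 in the activated arrays and 1277, 2201, 2168 and 2327 in the non-myogenic arrays. Within each kit the quiescent arrays were the highest, and the gene fell by 0.70 (SE 0.12, adjusted p 0.000123), -0.74 between small-sample arrays and -0.66 between two-cycle arrays. Eif3f (1452285_a_at) had signals of 5066, 5123, 5529 and 5903 in the quiescent arrays, 3737, 3248, 4030.0 and 4368 in the activated arrays and 2420.0, 2968, 3034 and 3090.3 in the non-myogenic arrays. No groups overlapped, and Eif3f fell by 0.50 (SE 0.12, adjusted p 0.00183), -0.55 between small-sample arrays and -0.44 between two-cycle arrays. Eif3e (1434523_x_at), a PCI-domain subunit, had signals of 4871, 5171, 12633 and 7863 in the quiescent arrays, 3691, 3322, 7702 and 6823 in the activated arrays and 2226, 4839, 4560.5 and 4698 in the non-myogenic arrays. Its small-sample arrays were the low ones in every group, QSC and ASC overlapped, and the change was -0.49 ± 0.15 (adjusted p 0.00969), a call lost under 7 of the 28 alternatives and turned under 1. The call of Eif3h was also lost with the mean of its probe sets, which took in 1434324_x_at and 1434323_at, both below the low-signal filter. None of these 3 falls was called without scaling or with median centring, where Eif3e stood at -0.18 and 0.0058, Eif3f at -0.19 and -0.0013, and Eif3h at -0.39 and -0.21. Eif3a, Eif3i, Eif3k and Eif3m were not called, with changes from -0.02 for Eif3k to 0.16 for Eif3a. Tested by itself in limma, probe set 1416660_at of Eif3a rose by 0.76 (adjusted p 0.0124).

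Among factors of start site selection and subunit joining Eif1ax, Eif5b and Eif6 rose, while Eif5 fell on the probe set used but not on others. Eif1ax (1419736_a_at), the X-linked gene of the scanning factor eIF1A, had signals of 747, 720.4, 995 and 1003 in the quiescent arrays, 1601, 1486, 2556 and 2883 in the activated arrays and 524, 807, 689 and 754 in the non-myogenic arrays. Every activated array lay above the other 8, and the gene rose by 1.24 ± 0.13 (2.37-fold, adjusted p 1.51e-06), 1.06 between small-sample arrays and 1.43 between two-cycle arrays. Its second probe set, 1449576_at, changed by -0.01. Its close relative Eif1a (1424344_s_at) had signals of 1122, 1305, 1896 and 1574 in the quiescent arrays, 746, 938, 1692 and 1834 in the activated arrays and 361, 396, 329.9 and 565 in the non-myogenic arrays. QSC and ASC overlapped, both lay above NMC, and the change from QSC to ASC was -0.25 ± 0.20 (adjusted p 0.278). The second probe set of Eif1a, 1424343_a_at, was called lower in ASC (-0.40, limma with each probe set tested by itself, adjusted p 0.0354). Near-identical genes can share probe signal, so the split between Eif1a and Eif1ax is uncertain, although the change of Eif1a minus that of Eif1ax was -1.49 (exact permutation test, adjusted p 0.0429). Eif1b (1428272_at), a homologue of the scanning factor eIF1, had signals of 608, 521, 726 and 835 in the quiescent arrays, 832, 713, 802 and 840.3 in the activated arrays and 856, 877, 886 and 912 in the non-myogenic arrays. Its non-myogenic arrays were the highest, and its change of 0.26 ± 0.13 from QSC to ASC was not called.

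Eif6 (1427578_a_at), which keeps the large ribosomal subunit from joining too early, had signals of 1319.7, 892, 659 and 966 in the quiescent arrays, 2034, 2051, 2612 and 3216 in the activated arrays and 714, 787, 892 and 879 in the non-myogenic arrays. The activated arrays stood above the other 8, and the gene rose by 1.37 ± 0.21 (2.59-fold, adjusted p 5.14e-05), 0.90 between small-sample arrays and 1.84 between two-cycle arrays. Eif5b (1434604_at), the GTPase of subunit joining, had signals of 181, 188, 254 and 256 in the quiescent arrays, 338, 372, 444 and 318 in the activated arrays and 93.4, 212, 144 and 153 in the non-myogenic arrays. It rose by 0.71 ± 0.17 (adjusted p 0.00216), with no overlap of ASC and QSC, and the call was lost within the two-cycle kit, with the mean of its probe sets and without both small-sample activated arrays. Eif5 (1415723_at), the GTPase-activating protein of eIF2, had signals of 3444, 3531, 4024 and 3428 in the quiescent arrays, 2184, 2162, 2675 and 2582 in the activated arrays and 1739, 1788, 1979 and 1716 in the non-myogenic arrays. No groups overlapped on this probe set, which fell by 0.59 (SE 0.12, adjusted p 0.000686). Probe sets 1433631_at and 1454663_at of the same gene rose by 0.76 and 0.96, and the mean of all its probe sets rose by 0.40, so Eif5 has no settled direction. Eif5a, whose protein carries hypusine and also acts in elongation, had means of 5219.9 ± 937 in QSC and 5772 ± 1588 in ASC, and its change of 0.12 ± 0.18 was not called, while its probe set 1437859_x_at rose by 1.01.

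**Figure D5:**
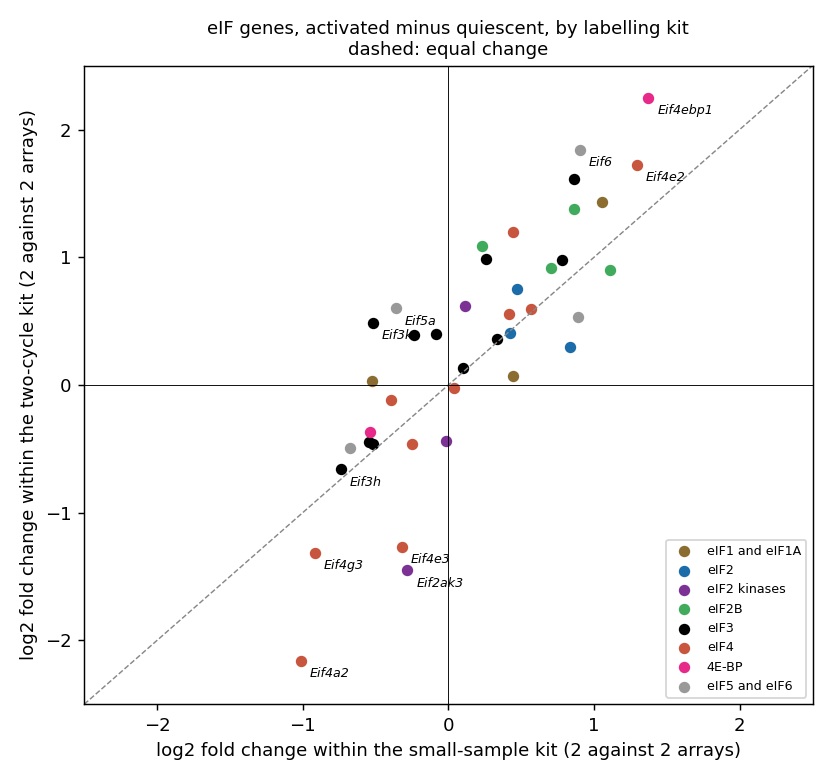
Log2 change of the 40 tested eIF genes from quiescent to activated cells among small-sample arrays (x axis) and among two-cycle arrays (y axis), each 2 against 2 arrays, coloured by group, with the dashed line marking equal change. Signs were the same in both kits for 34 of 40 genes, and for 6699 of all 7960 genes tested. Eif2ak3 (-0.28 and -1.45) and Eif3k (-0.52 and 0.48) lie away from the line.

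Freshly sorted quiescent cells also carried more initiation factor transcript than the non-myogenic cells sorted from the same muscles, led by eIF3. Of the 40 genes 24 were higher in QSC, where 26.4% of all genes were, 2 were lower, where 26.6% were, and 14 were not called; 52.9% of all genes were called either way. At 2-fold or more 8 were higher and 1 lower, against 8.37% and 13.8%. The median difference was 0.63, against 0.03 over all genes, and the arrays did not overlap for 22 of 40, against 39.7% of all genes. These comparisons share the quiescent arrays with those above. Without scaling 11 were higher and 5 lower, where 10.1% and 38.9% of all genes were. The median of all genes moved by -0.37 in that setting, and 35 of the 40 eIF genes lay above the median of all genes under each scaling. Within the small-sample kit, which holds a single non-myogenic array, 13 were higher. Of the 83 passing probe sets 52 were higher and 2 lower, against 27.4% and 24.0% of all probe sets.

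Of the 11 eIF3 genes 10 were higher in QSC than NMC and 0 lower, where 26.4% and 26.6% of all genes were. Their median difference was 0.92, beside 0.03 for all genes. Eif3h was higher by 1.23 ± 0.12 (adjusted p 1.83e-06), Eif3k by 1.21 ± 0.22, Eif3e by 1.12 ± 0.15 and Eif3m by 1.04 ± 0.14. Eif3b, the strongest riser of the complex in activated cells, differed by 0.33 ± 0.18 between QSC and NMC (adjusted p 0.128) and was the 1 not called. Eif1a was higher in QSC by 1.96 ± 0.20 (3.89-fold, adjusted p 3.25e-06), Eif4b by 1.34 ± 0.16, Eif4a1 by 1.19 ± 0.16 and Eif5 by 1.03 ± 0.12. The arrays of QSC and NMC overlapped for Eif4b because quiescent array 2, at 777, lay within the non-myogenic range of 354 to 852. Of the eIF2B genes only Eif2b2 was called, at 0.68 ± 0.17 (adjusted p 0.00486), and neither 4E-BP gene was. Tested by itself in limma, probe set 1434976_x_at of Eif4ebp1 was higher in QSC by 0.49 (adjusted p 0.033). Without scaling the 10 eIF3 calls became 6, those of Eif3a, Eif3c, Eif3d and Eif3l being lost, and among small-sample arrays they became 7, without Eif3a, Eif3c and Eif3l. Eif3c was also not called with no term for the kit, with a replicate block or with the mean of its probe sets. The call of Eif2b2 was lost without scaling, that of Eif4a1 among small-sample arrays and that of Eif3e with no term for the kit.

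Eif2ak3 was lower in QSC than NMC, with a log2 difference of -1.12 (SE 0.21, adjusted p 0.000469), with -1.53 between small-sample arrays and -0.78 between two-cycle arrays. Eif1b was lower too, with a difference of -0.35 (SE 0.14, adjusted p 0.0445), a call lost under 19 of the 28 alternatives. The count of 2 lower genes became 3 without quiescent array 4 and 1 without any 1 of the other arrays. The endothelial and fibroblast marker sums given above were highest in NMC and intermediate in QSC, and their part in these differences was not tested.

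Between ASC and NMC the initiation factors stood furthest apart, with 32 genes higher in ASC, 4 lower and 4 not called. Of all genes 34.1% were higher and 38.3% lower, 72.4% in all. At 2-fold or more 20 were higher and 4 lower, against 18.5% and 24.8%. The median difference was 1.03, with -0.07 over all genes, and the arrays did not overlap for 33 of 40, against 61.6% of all genes. The sign was the same in both kits for 39 of 40, and for 7081 of all 7960 genes tested. All 11 eIF3 genes, all 4 eIF2B genes and all 3 of Eif2s2, Eif2s3x and Eif2d were higher. Among small-sample arrays, with their single non-myogenic array, 7 of 11, 3 of 4 and 3 of 3 were. The largest positive differences were those of Eif4e2 (2.12 ± 0.17, 4.35-fold, adjusted p 7.05e-08), Eif4ebp1 (1.98 ± 0.21), Eif1a (1.71 ± 0.20), Eif1ax (1.71 ± 0.13) and Eif4a1 (1.67 ± 0.16). Eif2ak3 (-1.99), Eif4e3 (-1.16), Eif4g3 (-1.04) and Eif4a2 (-1.04) were the 4 lower ones, of which Eif4a2 was not called among small-sample arrays. Eif4ebp2, Eif2ak1, Eif4g2 and Eif1b were not called on the probe sets used. With each probe set tested by itself in limma, 1428362_at and 1415863_at of Eif4g2 were higher in ASC by 0.67 and 0.86 (adjusted p 0.00019 and 0.000119). For Eif4ebp2 the differences were 0.58 on 1436158_at and -0.59 on 1437733_at (adjusted p 0.0132 for each). For Eif4e2 they were 1.84 on 1421985_a_at but -0.38 on 1435804_at (same limma fit, adjusted p 0.0387 for the latter). For Eif4e3 the second probe set, 1417978_at, differed by -0.55 and was not called (same limma fit, adjusted p 0.0814). Of the 83 passing probe sets 68 were higher and 7 lower, against 34.1% and 35.9% of all probe sets. The call of Eif4h (0.39 ± 0.15, adjusted p 0.0352) was lost under 11 of the 28 alternatives.

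Other translation genes were counted from lists drawn up with earlier results of these data known. Of 20 cytosolic aminoacyl-tRNA synthetase genes tested, which charge tRNA with amino acids, 17 rose from QSC to ASC and 0 fell, where 31.8% and 38.2% of all genes did, with a median change of 1.16 beside -0.11 for all genes. Cars rose by 1.73 ± 0.15, Gars by 1.68 ± 0.16 and Aars by 1.54 ± 0.16. Of 10 termination and recycling genes 8 rose and 0 fell (median 0.92), among them the recycling factor gene Denr (2.00 ± 0.15), Abce1, which splits ribosomes (1.24 ± 0.14), and the release factor gene Gspt1 (1.00 ± 0.13). Of 8 elongation factor genes 1 rose and 5 fell (median -0.39), where 31.8% and 38.2% of all genes did. The 5 became 1 without scaling or with median centring, 2 with quantile normalization, 3 among small-sample arrays and 2 among two-cycle arrays. Eef1a2 fell by 1.79 and Eef2, the translocase, fell by 0.70, the latter not called without scaling or with median centring, while Eef1e1, a part of the multi-synthetase complex, rose by 2.11 ± 0.18. Both hypusine enzyme genes, which modify eIF5A, rose, Dohh by 1.43 ± 0.22 and Dhps by 0.87 ± 0.16, though with the mean of its probe sets Dohh stood at 0.33 and was not called. Of 5 mitochondrial translation factor genes 4 rose (median 0.90), with Tufm at 2.74 ± 0.25, Gfm1 at 1.84 ± 0.14 and Gfm2 at 0.90 ± 0.14. With the mean of probe sets Tufm stood at 0.82 and stayed called, and Gfm2 at 0.28 was not called.

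Genes of the mTORC1 pathway and the cap complex, and those of the integrated stress response, did not move one way. Of 29 genes of the mTORC1 pathway and the cap complex 7 rose and 11 fell from QSC to ASC, near the 31.8% and 38.2% of all genes, with a median of -0.11, which is that of all genes to the same 2 decimals. With median centring 14 rose and 5 fell, where 47.6% and 23.6% of all genes did. Sesn1, a sestrin that inhibits mTORC1, fell by 3.32 (SE 0.21, adjusted p 1.52e-08), from 2008 ± 931 to 172 ± 16.9. Mknk2, a kinase that phosphorylates eIF4E, fell by 1.87, and Paip2, an inhibitor of the poly(A)-binding protein, fell by 1.12. Among the genes that rose, Lamtor1, an anchor of mTORC1 at the lysosome, rose by 1.27 ± 0.25, Pabpc4, a poly(A)-binding protein gene, by 1.15 ± 0.15, and Larp1, which binds mRNAs with a pyrimidine-rich cap site, by 0.86 ± 0.19. Larp1 was not called among small-sample arrays (adjusted p 0.127). Of 27 genes of the integrated stress response, the programme set off by eIF2 phosphorylation, 12 rose and 10 fell (median 0.10), beside the same shares of all genes. Asns, asparagine synthetase, rose from 70.04 ± 15.8 to 1842 ± 318 (4.45 ± 0.18), and Phgdh, of serine synthesis, rose by 3.45 ± 0.19. The transcription factor genes Atf3 and Cebpb fell, with log2 changes of -6.74 and -3.86. Ppp1r15a, whose product directs a phosphatase to eIF2, fell from 3341 ± 613 to 281 ± 95.2 (-3.54 ± 0.30, adjusted p 2.32e-07).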

How the data were processed

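RNA was isolated with a column kit, labelled with biotin by 1 of 2 kits per the labels' protocols, and hybridised to Affymetrix mouse 430A arrays, 1 per sample. The deposited values are probe set signals, an intensity on a linear scale, credited to MAS5 by the submitters' processing notes, with version and settings not given in the sources used here. Array levels differed, and no detection calls were used. Each array was multiplied to a common 2% trimmed mean of 235, the median of the 12, and turned into log2(signal + 14.7), 1/16 of that value. Fold changes are on this scale, which understates changes at low signal.

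The platform's annotation named the probe sets; 691 with several genes, of which 5 list an eIF gene, 1555 not listed and 64 controls were left out. The table names no genome build. Each of 12393 genes was represented by its probe set of highest mean log2 signal, and the 7960 whose mean signal reached 47.03, or 0.2 of that common level, entered the tests. limma 3.58.1 in R 4.3.3 (lmFit, eBayes) was fitted to all 12 arrays with group and labelling kit, leaving 8 residual degrees of freedom, and calls were made at a Benjamini-Hochberg adjusted p under 0.05. Paralogue pairs were compared by the per-array difference of log2 values with a two-sided exact permutation test. Within-kit changes come from the 5 or 7 arrays of a kit alone. The mean of the probe sets of a gene took in all of them, also those below the low-signal filter.

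Members, lists and comparisons were chosen with earlier results of these data known. Genes are given array by array if they belong to the 4E-BP, eIF2 kinase or eIF2B groups, to a paralogue pair, to the 3 with the smallest adjusted p of their group in ASC minus QSC, to the smallest in the other comparisons, or run against most of their group. Other lists are named by at most 3 members of smallest adjusted p and at most 3 against their direction, and the sex-linked list in full, where Ddx3y had no probe set used here. Replicate numbers are shared by the groups, but no label says that they pair samples. The code was tested on simulated data. Alternatives were other scalings, pseudocounts, filters and probe set rules, kits alone or without a term, array weights, trended and robust variances, 2 groups alone, a replicate block and each array left out; the fit without both small-sample activated arrays and the kit interaction were added after the data were seen. The number of arrays limits the precision. Figures were drawn with Python 3.11.15 and matplotlib 3.10.9.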

Additional observations from a re-analysis of the deposited data

Results flagged for a closer look

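In groups of 4 arrays, 1 array stood apart from the other 3 for 11 of the 120 combinations of gene and group examined; chance alone marks about 1 in 20 such groups. Non-myogenic array 1, the only small-sample array of its group, was the one apart for 9 genes. Its log2 signal was below the other 3 for Eif2b2 (8.37, the others at 8.75 to 8.77), Eif2b4 (8.81, others 9.17 to 9.22) and Eif4e2 (8.33, others 8.57 to 8.62). It was also below them for the eIF3 genes Eif3c (10.49, others 11.17 to 11.31), Eif3e (11.13, others 12.16 to 12.24), Eif3f (11.25, others 11.54 to 11.60) and Eif3h (10.34, others 11.09 to 11.19), and for Eif4b (8.53, others 9.72 to 9.76). For Eif4e3 it was above them (9.45, others 9.05 to 9.10). Quiescent array 1 was above the others of its group for Eif4g3 (10.08, others 9.43 to 9.51), and non-myogenic array 3 for Eif4h (11.63, others 11.32 to 11.35).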

How the results depend on the processing

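Between ASC and QSC, 19 eIF genes higher and 8 lower became 11 and 4 within the small-sample kit, with the lower count 2 unscaled, 2 with median centring and 5 with the mean of probe sets. The share of all genes called within a kit alone was not counted. With every passing probe set of 83 as its own feature, 37 were higher and 13 lower, against 30.7% and 37.6% of all probe sets. For QSC against NMC, 24 higher became 11 unscaled, where 10.1% of all genes were higher and 38.9% lower. Over probe sets the count was 52, where 27.4% of all 12072 probe sets were higher. The 2 lower became 5 unscaled, and 1 with no kit term, within the two-cycle kit, with no filter, with array weights, with only 2 groups, with a replicate block and without both small-sample activated arrays. For ASC against NMC, 32 higher and 4 lower became 68 and 7 over the 83 probe sets, against 34.1% and 35.9% of all probe sets. Leaving out 1 array gave 18 to 19 and 8 to 9 for ASC against QSC, 24 to 25 and 1 to 3 for QSC against NMC, and 31 to 32 and 4 to 4 for ASC against NMC. With a replicate block in place of the kit term the counts were 18 and 7, 23 and 1, and 29 and 4. Same-numbered arrays of QSC and ASC, which share a kit, correlated at 0.146 to 0.279 in their deviations from group means, and at -0.512 to -0.229 with the kit removed. Called values that turned were Eif3e under median centring (0.0058) and, with the mean of probe sets, Eif3l (-0.18), Eif5 (0.40), Eif4e minus Eif4e2 (0.44 for ASC minus QSC, 0.53 for ASC minus NMC) and Eif5 minus Eif5b (0.23 and 0.42). The mean of probe sets took in those below the low-signal filter. Direction was followed for called values only. With 1 array left out the pair tests cannot pass the threshold. Beyond the smaller number of arrays within a kit, the cause was not tested.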
